A study of Mus musculus with 2 samples.

Results

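The 7 genes described here encode the MHC class II antigen-presenting machinery: H2-Aa, H2-Ab1, H2-Eb1, Cd74, H2-DMa, H2-DMb1 and Ciita. They were chosen by symbol and were found in the feature lists of both libraries, as 7 of 31055 features. Their UMIs (unique molecular identifiers, each marking 1 captured transcript) were read in endothelial cells sorted from orthotopic tumors of wild-type (WT) female C57BL6 mice. The mice were 6 weeks old, had received 100000 tumor cells of either the PyMT line (mammary carcinoma) or the KPC line (pancreatic carcinoma), and their tumors were digested on day 10. Blood endothelial cells (BECs) were obtained by removing cells with leukocyte, epithelial, erythroid or podoplanin markers. No further treatment was given, so the tumor line was the variable that differed by design. The organ went with it, since the paper's orthotopic sites are the mammary gland for PyMT and the pancreas for KPC. The collagenase D dose also differed (400 U/mL for PyMT and 500 U/mL for KPC). Each tumor model has 1 library, and the number of mice behind it is not given in the sources used here. There is therefore no test between models or between classes of cells in what follows, and every interval covers counting error at 95% and leaves out the spread between cells and mice.

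MHC class II molecules present peptides taken up from outside the cell to CD4+ T cells. An alpha and a beta chain form the molecule: H2-Aa and H2-Ab1 encode the chains of I-A, and H2-Eb1 encodes the beta chain of I-E, which C57BL6 mice do not display because they lack a working alpha chain gene for it. The invariant chain Cd74 escorts new class II molecules to the endosome, and H2-DM, the product of H2-DMa and H2-DMb1, exchanges the remaining invariant chain fragment for peptide. Ciita is the transactivator that switches these genes on. Dendritic cells, B cells and many macrophages express class II constitutively, whereas endothelium acquires it after exposure to interferon gamma.

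Requiring 500 detected genes or more, and less than 10% of UMIs from mitochondrial genes, left 11744 barcodes in PyMT and 9591 in KPC, and 170 barcode sequences occurred in both libraries before filtering. They were sorted into 10 classes by summed UMIs of a few genes, none of which is a class II gene, and each barcode went to the first class whose threshold it met. The 5 classes of BECs were venule (Ackr1 and Selp, 360 barcodes in PyMT and 636 in KPC), artery (Gja5 and Sema3g, 126 and 105), tip (Apln and Angpt2, 1987 and 1296), capillary (Car4 and Cd300lg, 2593 and 1292) and the remainder called other (5593 and 4047). Together they made 10659 BECs in PyMT and 7376 in KPC. Lymphatic (628 and 796), pericyte (27 and 119), fibroblast (27 and 440), tumor (379 and 791) and immune barcodes (24 and 69) were the other classes. Podoplanin is also a lymphatic marker, so the lymphatic barcodes are those left after podoplanin-positive cells were removed. Class II genes were searched for in all of them, since a BEC library can carry class II RNA from leukocytes either as free RNA in the droplets or as a leukocyte sharing a barcode with a BEC. Venule barcodes held a median of 3486 UMIs in PyMT and 3848.5 in KPC. Capillary barcodes held 4254 in PyMT but 1871 in KPC, so shares of cells with a UMI are also given after thinning each cell to 2000 UMIs.

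H2-Aa, H2-Ab1, H2-Eb1, H2-DMa and H2-DMb1 lie close together on chromosome 17 and Ciita lies on chromosome 16. In GENCODE M21 (GRCm38) H2-Ab1 spans 34257689 to 34269419 and H2-Aa spans 34282744 to 34287823 on the opposite strand, followed by H2-Eb1 from 34305867 to 34316674. The H2-DM genes lie before them, H2-DMa at 34119541 to 34139101 and H2-DMb1 at 34153072 to 34160230. Ciita spans 10480059 to 10528418 of its chromosome. H2-Eb1 overlaps the antisense gene Gm20513, H2-DMa overlaps Brd2 on the opposite strand, and Ciita overlaps Dexi on the opposite strand. H2-DMa also overlaps CR974462.3 and Cd74 overlaps Mir5107 on the same strand, which a count by strand would not separate. Whether counting used strand is not given in the sources used here, and H2-DMb1 and H2-Eb1 each have a near copy (H2-DMb2 and H2-Eb2) with which reads could be shared.

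Class II promoters are known for an X box, bound by the RFX complex, and a downstream Y box, bound by NF-Y, on which Ciita assembles. The stretches below are shown because they carry the shared element through which 1 factor is known to act on several of the genes. They come from RefSeq promoters (GRCm38.p6, 250 bases before to 50 after the gene start), which were at hand for 4 of the 7 genes as 5 sequences. Capitals mark the X box core, searched as CTNGNAAC, and the Y box, searched as TGATTGG. Both motifs were written down after these promoters had been seen and were searched on both strands. The stretches lie at chr17:34287837-34287927 on the minus strand for H2-Aa, at chr17:34153074-34153164 on the plus strand for H2-DMb1 and at chr17:34305753-34305842 on the plus strand for H2-Eb1.
H2-Aa: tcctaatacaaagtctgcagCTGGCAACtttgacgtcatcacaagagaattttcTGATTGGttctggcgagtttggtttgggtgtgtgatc
H2-DMb1: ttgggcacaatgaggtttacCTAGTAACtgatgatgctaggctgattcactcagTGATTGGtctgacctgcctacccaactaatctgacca
H2-Eb1: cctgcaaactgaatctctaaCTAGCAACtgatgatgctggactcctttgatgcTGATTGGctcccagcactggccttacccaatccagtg
The 2 motifs were separated by 26, 26 and 25 bases, and the X core began 84, 97 and 94 bases before the RefSeq gene start in H2-Aa, H2-DMb1 and H2-Eb1. For H2-DMb1 that start lies downstream of the GENCODE start given above, so its stretch lies inside the GENCODE span of the gene. The Y box letters occurred in 7.82% of the 32851 promoters of the table and the X core letters in 13.2%. The X core followed by the Y box on the same strand, with 10 to 40 bases between, occurred in 28 promoters (0.0852%). Neither promoter sequence of H2-DMa held either motif. Both sequences (chr17:34122582-34122881 and chr17:34125268-34125567) lie inside the GENCODE span of H2-DMa, downstream of its GENCODE start. The stretch before that start was not searched, so the motifs could still lie there.

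The chain genes were highest in venule cells among the BEC classes of PyMT. In KPC, with all barcodes counted, they were about as high in the other class as in venule cells. Levels are given as CPM, the UMIs of a gene in 1000000 UMIs of its class. The 3 chain genes H2-Aa, H2-Ab1 and H2-Eb1 summed to 14.7 CPM in PyMT venules [9.19 to 22.2, 22 UMIs] and to 45.6 CPM in KPC venules [38.2 to 54.1, 133 UMIs]. Capillaries held 1.73 CPM in PyMT [1.09 to 2.63, 22 UMIs] and 19.9 CPM in KPC [15.6 to 25.2, 71 UMIs]. Tip cells, the leading cells of sprouts, held the lowest level among the BEC classes with more than 3 UMIs, at 1.08 CPM in PyMT (14 UMIs) and 5.81 CPM in KPC (49 UMIs). The other class held 2.55 CPM in PyMT and 40.3 CPM in KPC, and artery cells had 2 chain UMIs in PyMT and 1 in KPC. Ordered by level, venule stood first, then other, capillary and tip in both libraries, artery left aside. In PyMT the intervals of other and capillary overlapped, as did those of capillary and tip, and in KPC those of venule and other overlapped. In KPC other, 111 of the 450 chain gene UMIs were in barcodes with under 2 endothelial UMIs. Among the cleared barcodes described further on, KPC other held 22.3 CPM [19.6 to 25.4] and KPC venules 43.1 CPM [35.9 to 51.5]. Immune barcodes, the class that would hold professional presenters, were far above every BEC class at 817 CPM in PyMT and 2831 CPM in KPC. A chain gene UMI was found in 7 of 24 of them in PyMT and in 38 of 69 in KPC. In PyMT 1 immune barcode carried 30% of the 80 UMIs.

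**Figure D1:**
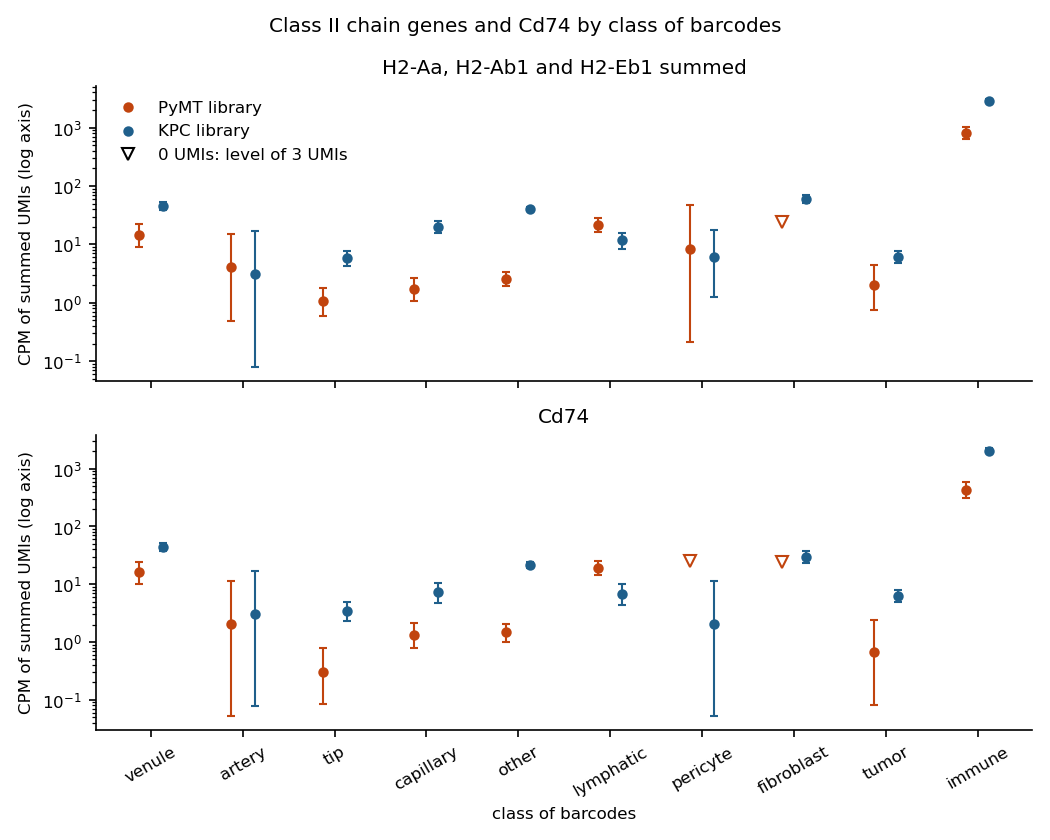
Level of the summed chain genes (H2-Aa, H2-Ab1, H2-Eb1) and of Cd74 in each class of barcodes, in CPM on a log axis, for the PyMT and KPC libraries; bars are exact Poisson 95% intervals and cover counting error only, and open triangles mark the level of 3 UMIs where none was counted. Among BEC classes venule is highest for Cd74 in both libraries (16.0 and 44.3 CPM), and immune barcodes are far higher still.

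Each chain gene had the same order of venule and capillary. H2-Ab1 held 8.67 CPM in PyMT venules and 0.63 CPM in PyMT capillaries (13 and 8 UMIs), a log2 ratio of 3.78 [2.40 to 5.26]. In KPC it held 24.7 and 11.8 CPM (72 and 42 UMIs), a log2 ratio of 1.07 [0.50 to 1.65]. H2-Aa held 3.33 and 0.473 CPM in PyMT (5 and 6 UMIs) and 10.3 and 5.06 CPM in KPC (30 and 18 UMIs), with log2 ratios of 2.82 [0.77 to 4.79] and 1.03 [0.14 to 1.96]. The interval for H2-Eb1 included 0 in PyMT, where 4 venule and 8 capillary UMIs gave 2.08 [-0.10 to 3.98], and in KPC 31 and 11 UMIs gave 1.78 [0.75 to 2.92]. For the 3 genes together the log2 ratio of venule over capillary was 3.08 [2.16 to 4.00] in PyMT and 1.19 [0.77 to 1.63] in KPC. In PyMT the ratio was 1.67 in cells thinned to 2000 UMIs (5 and 13 UMIs) and 2.23 without the 8% of barcodes with the most UMIs (12 and 22 UMIs), where H2-Aa stood at 1.52 and H2-Eb1 at 0.10. In KPC it was 1.80 in thinned cells. These intervals treat UMIs as independent, although many of them came from a few cells, as described further on.

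Cd74 was highest in venules among the BEC classes of both libraries. It held 16.0 CPM in PyMT venules [10.3 to 23.8, 24 UMIs] against 1.34 CPM in capillaries [0.780 to 2.15, 17 UMIs], a log2 ratio of 3.58 [2.62 to 4.57]. KPC venules held 44.3 CPM [36.9 to 52.6, 129 UMIs] against 7.30 CPM in capillaries [4.77 to 10.7, 26 UMIs], a log2 ratio of 2.60 [1.98 to 3.27]. In KPC the venule level of Cd74 was also above that of the other class (21.4 CPM), with a log2 ratio of 1.05 [0.73 to 1.36], whereas for the chain genes this ratio was 0.18 [-0.11 to 0.46]. Tip cells held 0.308 CPM of Cd74 in PyMT (4 UMIs) and 3.44 CPM in KPC (29 UMIs).

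The peptide editor and the transactivator were sparse. H2-DMa had 1 UMI in PyMT venules and 15 in capillaries, and 17 and 12 in KPC, with log2 ratios of -0.83 [-6.22 to 1.87] and 0.79 [-0.36 to 1.99]. H2-DMb1 had 1 UMI in each of the PyMT venule and capillary classes, and 13 and 9 UMIs in KPC (4.46 and 2.53 CPM), a log2 ratio of 0.82 [-0.52 to 2.23]. Venule and capillary could therefore not be told apart for either H2-DM gene at this depth. Ciita had 0 UMIs in PyMT venules, with an upper limit of 2.46 CPM, and 2 UMIs in PyMT capillaries. In KPC it had 2 UMIs in venules, 3 in capillaries and 16 in all BECs, or 0.606 CPM [0.346 to 0.984]. Ciita was sparse in immune barcodes too, with 0 UMIs in PyMT and 3 in KPC.

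A gene was called when its CPM differed at least 2-fold between classes and both classes together held at least 30 UMIs. In PyMT venules over capillaries, 4.48% of 10425 genes were called higher, and of the 7 class II genes Cd74 was the 1 that met the count minimum and it was called. In KPC 3.11% of 9542 genes were called higher, and H2-Aa, H2-Ab1, H2-Eb1 and Cd74, the 4 that met the minimum, were called while H2-DMa, H2-DMb1 and Ciita fell short of it. With the mean of each cell's CPM in place of the summed UMIs, the KPC log2 ratios of H2-Aa and H2-Ab1 were 0.69 and 0.71, and that of the chain genes together 0.81, so these calls were lost. In tip cells below capillaries, 6.74% of genes were called lower in KPC. H2-Ab1 and Cd74 were among them, the H2-DMa value of -0.66 was not, and the other 4 genes had too few UMIs. In PyMT 1.33% of genes were called lower in tip cells, and none of the 7 had 30 UMIs there.

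**Figure D2:**
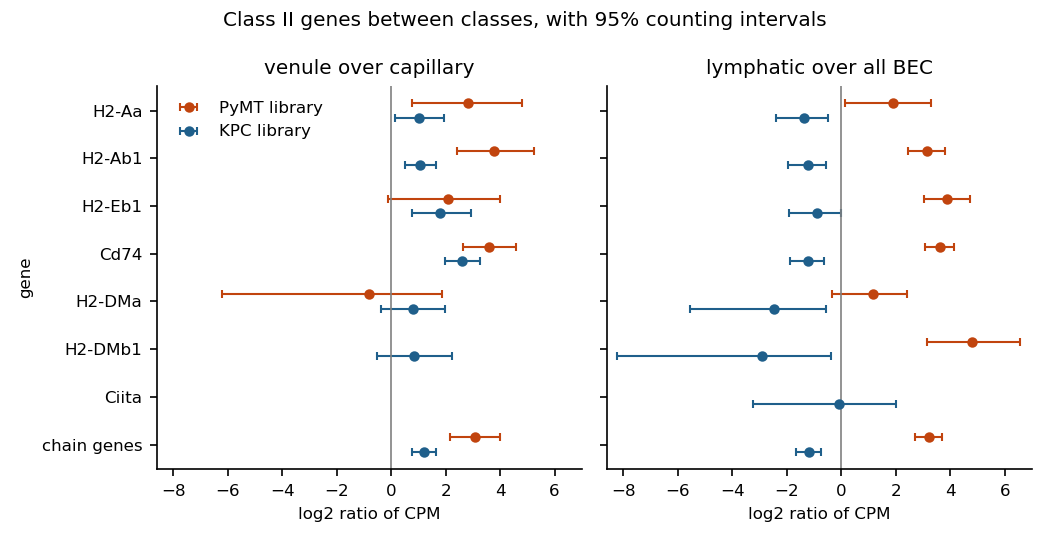
log2 ratio of CPM for each class II gene and for the 3 chain genes together, with 95% counting intervals, for venule over capillary (left) and lymphatic over all BECs (right) in both libraries; no point is drawn where both sides hold 3 UMIs or fewer. For venule over capillary the Cd74 values are 3.58 (PyMT) and 2.60 (KPC), while the H2-DMa intervals span 0 in both libraries, and on the right the chain gene values are 3.21 (PyMT) and -1.19 (KPC).

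KPC BECs held more class II RNA than PyMT BECs. The chain genes stood at 26.7 CPM in all KPC BECs [24.7 to 28.7, 704 UMIs] and at 2.33 CPM in all PyMT BECs [1.93 to 2.81, 114 UMIs], a log2 ratio of 3.51 [3.23 to 3.81]. Cd74 stood at 16.1 and 1.58 CPM, H2-DMa at 3.18 and 1.003 CPM and H2-DMb1 at 2.16 and 0.123 CPM, with log2 ratios of 3.35 [2.99 to 3.72], 1.66 [1.14 to 2.20] and 4.13 [2.92 to 5.64]. Ciita had 16 UMIs in KPC BECs and 3 in PyMT BECs, a log2 ratio of 3.30 [1.50 to 5.72]. Of all genes 8.88% were at least 2-fold higher in KPC BECs, and 6 of the 7 class II genes were called, Ciita being under 30 UMIs. By class, the log2 ratio of KPC over PyMT for the chain genes was 1.64 [0.98 to 2.36] in venules, 3.52 [2.82 to 4.28] in capillaries, 2.43 [1.55 to 3.40] in tip cells and 3.98 [3.57 to 4.42] in the other class. In venules 3.28% of genes were called higher in KPC, and H2-Aa, H2-Ab1, H2-Eb1 and Cd74 were called. In capillaries 10.2% were called, and H2-Ab1 and Cd74 were called. The 4 macrophage genes Lyz2, C1qa, C1qb and C1qc moved the same way, at 1.52 CPM in PyMT BECs and 9.43 CPM in KPC BECs. With 1 library per model, tumor type, organ, mouse, digestion and library cannot be told apart. Nor can fewer expressing cells and less RNA per cell in these sums.

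Set against the BECs, lymphatic barcodes went opposite ways in the libraries. Their chain gene level was 21.6 CPM in PyMT [16.3 to 27.9, 57 UMIs], above the BECs as a whole, with a log2 ratio of 3.21 [2.72 to 3.68]. It was 11.7 CPM in KPC [8.41 to 15.9, 41 UMIs], below the BECs as a whole, with a log2 ratio of -1.19 [-1.68 to -0.73]. The lymphatic level itself differed less between the libraries than the BEC level. Its log2 ratio of KPC over PyMT was -0.88 [-1.49 to -0.27], against 3.51 in all BECs. Cd74 held 19.3 CPM in PyMT lymphatic barcodes (51 UMIs) and 6.86 CPM in KPC ones (24 UMIs). In PyMT 10.9% of genes were at least 2-fold higher in lymphatic barcodes than in BECs, and H2-Aa, H2-Ab1, H2-Eb1, Cd74 and H2-DMa were called, with H2-DMb1 and Ciita under 30 UMIs. In KPC 11% of genes were at least 2-fold lower, and H2-Aa, H2-Ab1, Cd74, H2-DMa and H2-DMb1 were called, with H2-Eb1 at -0.90 and Ciita under 30 UMIs. PyMT venule and lymphatic barcodes did not differ beyond counting error in chain genes, with a log2 ratio of -0.56 [-1.34 to 0.18].

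Class II UMIs sat in few cells. A UMI of a chain gene or Cd74 was found in 109 of 10659 PyMT BECs and in 380 of 7376 KPC BECs. In KPC 48 BECs held 5 or more of these UMIs, and they carried 60.1% of the 1128 UMIs counted in BECs. Of these 48, 31 had at least 2 endothelial UMIs and 0 UMIs of the 12 immune genes used below to clear barcodes. Another 4 had under 2 endothelial UMIs and carried 149 UMIs. Among KPC venules 15 of 636 barcodes held 5 or more and carried 69.1% of 262 UMIs, with 31 in the highest. Of these 15, 13 met both conditions. Among PyMT venules 2 of 360 barcodes carried 45.7% of 46 UMIs. The highest PyMT venule barcode held 3 H2-Aa, 4 H2-Ab1, 3 H2-Eb1, 5 Cd74 and 1 H2-DMb1 UMIs together with 11 UMIs of Ackr1 and Selp, 38 of 6 endothelial genes (Pecam1, Cdh5, Egfl7, Cldn5, Esam and Tie1) and 0 of the 12 immune genes used below to clear barcodes. In lymphatic barcodes 5 of 628 in PyMT carried 38.9% of 108 UMIs and 3 of 796 in KPC carried 53.8% of 65 UMIs. In KPC venules the class level in CPM was thus set mainly by these 15 barcodes.

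**Figure D3:**
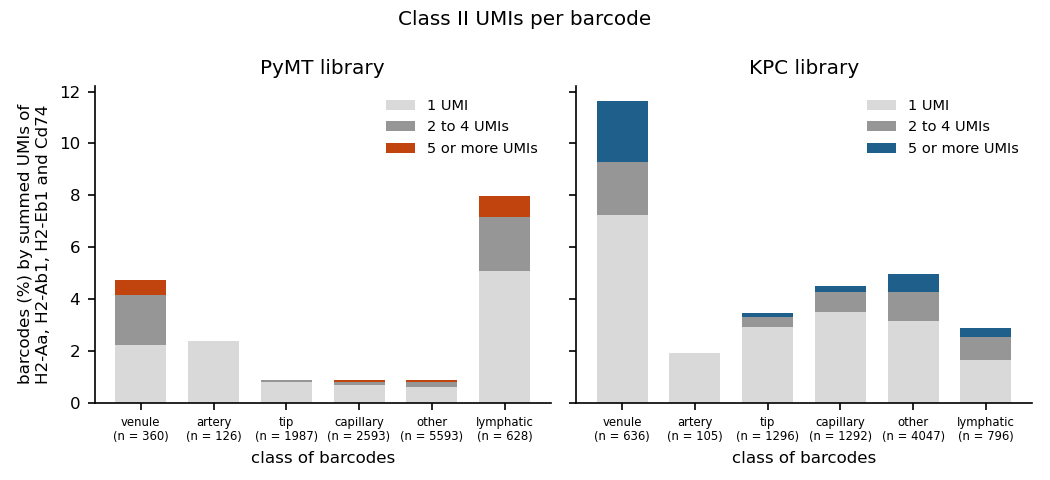
Percent of the barcodes of each endothelial class that hold 1, 2 to 4, or 5 or more summed UMIs of H2-Aa, H2-Ab1, H2-Eb1 and Cd74, stacked, in both libraries, with each class's number of barcodes under its name and barcodes with 0 left off. The tallest bar is KPC venule, where 74 of 636 barcodes hold a UMI and 15 hold 5 or more.

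The genes were detected together. Of the KPC venule cells with a Cd74 UMI, 20 of 36 (55.6%) also had a chain gene UMI [38.1 to 72.1%], against 38 of 600 (6.33%) without one [4.52 to 8.59%]. In PyMT venules these were 4 of 11 (36.4%) and 6 of 349 (1.72%). Over all BECs they were 54.9% and 3.29% in KPC and 36.6% and 0.640% in PyMT. The pattern was not particular to endothelium. In KPC tumor barcodes it was 6 of 18 (33.3%) and 16 of 773 (2.07%), and in KPC immune barcodes 84.6% and 16.7%. In PyMT tumor barcodes it was 0 of 2 and 5 of 377. Median UMIs were 2501.5 in the KPC BECs with Cd74 and 2765 in those without, so the cells with Cd74 were not the deeper ones there, and in PyMT they were 3303 and 3922.5. In venules alone the medians were 3337.5 and 3883.5 in KPC, but 4088 and 3461 in PyMT. The PyMT venule cells with Cd74 were thus the deeper ones.

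The share of cells with a chain gene UMI was 9.12% in KPC venules [6.998 to 11.6%], 3.87% in capillaries, 3.24% in tip cells and 4.08% in the other class. Tumor barcodes, a class that need not express these genes, had 2.78% in KPC at a median of 12694 UMIs. After thinning to 2000 UMIs the shares were 5.47% in venules [3.70 to 7.76%], 2.03% in capillaries [1.05 to 3.51%], 0.975% in tip cells, 2.36% in the other class [1.75 to 3.11%] and 1.15% in tumor barcodes [0.526 to 2.17%]. The tip share was at the tumor level, and the capillary and other intervals overlapped that of tumor barcodes. In KPC tumor barcodes 79.1% of the chain gene UMIs sat in 8 barcodes, and whether their share is a background level was not tested. In PyMT the thinned shares were 1.40% in venules [0.384 to 3.55%], 0.466% in capillaries, 0.310% in tip cells, 0.366% in the other class and 0.265% in tumor barcodes [0.007 to 1.47%]. These PyMT shares lay within the interval of the tumor barcodes and could not be told apart from it at this depth, whereas the thinned PyMT lymphatic share was 3.72% [2.22 to 5.81%]. For Cd74 the thinned PyMT venule share was 2.11% [0.776 to 4.53%], and 0 of 377 tumor barcodes had a UMI, with an upper limit of 0.974%. Thinning left out 75 of 360 venule and 230 of 2593 capillary barcodes in PyMT, and 106 of 636 and 700 of 1292 in KPC.

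Free RNA from lysed leukocytes was estimated next, from the immune UMIs in each class and without empty droplets. If immune RNA were the source, a class would hold class II UMIs in proportion to other immune UMIs, at the ratio seen in immune barcodes. That ratio rests on 24 immune barcodes in PyMT and 69 in KPC. Scaled on Lyz2, C1qa, C1qb and C1qc, macrophage genes with little endothelial expression, PyMT venules had 0 UMIs of these genes and would carry over 0 CPM of chain genes, against 14.7 CPM measured. KPC venules had 7 such UMIs and would carry over 0.9302 CPM, against 45.6 CPM measured. The carried-over level was 1.74 CPM against 19.9 CPM measured in KPC capillaries, 7.24 against 40.3 CPM in the KPC other class and 7.20 against 11.7 CPM in KPC lymphatic barcodes. Scaled on 12 immune genes (the 4 above with Fcer1g, Cd52, Coro1a, Cd53, Cd37, Rac2, Cd79a and Itgax), the carried-over level was 1.92 CPM in PyMT venules and 5.30 CPM in KPC venules. On that scale it reached the measured level in PyMT capillaries (1.74 against 1.73 CPM) and passed it in tip cells of PyMT (2.02 against 1.08 CPM) and KPC (10.5 against 5.81 CPM) and in KPC lymphatic barcodes (13.0 against 11.7 CPM). Most of the 12-gene UMIs in PyMT BECs were from Fcer1g (609) and Coro1a (343), against 27 from Lyz2. The venule levels of both libraries and the PyMT lymphatic level (21.6 CPM against 0.476 and 2.04 CPM) exceeded the carried-over level on both scales. So did the KPC capillary and other levels. The tip levels of both libraries, the PyMT capillary and other levels and the KPC lymphatic level did so on 1 scale. Dendritic and B cells contribute little to the macrophage genes. On the 12-gene scale the B cell and dendritic markers were Cd79a and Itgax. They had 4 and 0 UMIs in PyMT BECs and 14 and 0 in KPC BECs. RNA from dendritic and B cells was not estimated on its own by either scale.

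**Figure D4:**
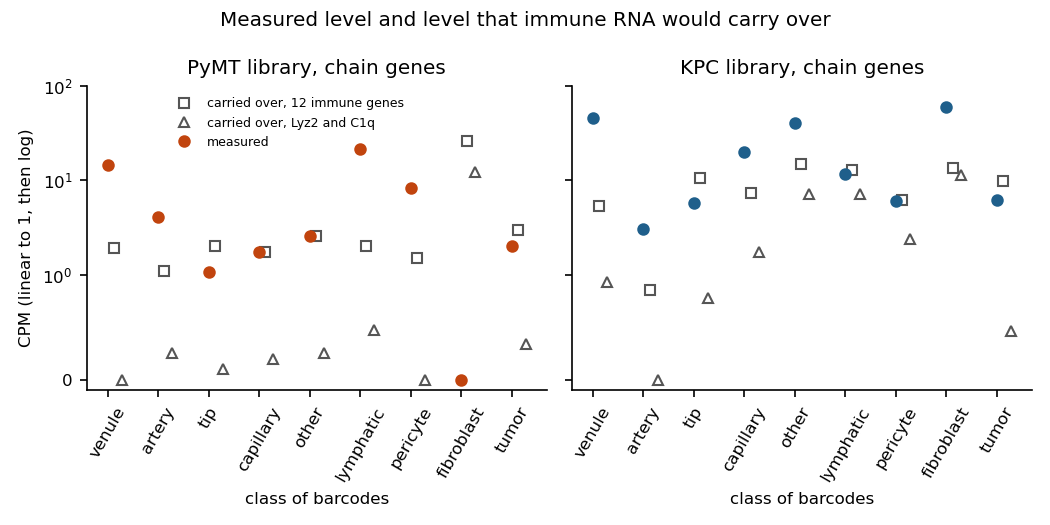
Measured level of the chain genes in each class beside the level that immune RNA would carry over when scaled on 4 macrophage genes or on 12 immune genes, in CPM on an axis that is linear up to 1 and logarithmic above, for both libraries. In venules the measured values (14.7 CPM in PyMT, 45.6 CPM in KPC) are above both carried-over values.

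Immune doublets were looked for by the number of UMIs of Ptprc, Tyrobp and Laptm5, of which a BEC barcode may hold at most 2 by definition. In KPC BECs the share with a chain gene UMI was 4.09% at 0 such UMIs (7304 barcodes), 22.0% at 1 (59 barcodes) and 30.8% at 2 (13 barcodes). In PyMT BECs it was 0.791%, 0.373% and 0 of 23. The gate UMIs of PyMT BECs were mostly Laptm5 (293, with 20 of Tyrobp and 1 of Ptprc). PyMT immune barcodes held mostly Tyrobp (133, with 15 of Laptm5 and 15 of Ptprc). The PyMT split therefore mainly sorts barcodes by Laptm5 and cannot decide on doublets. All 133 chain gene UMIs of KPC venules were in the 634 barcodes with 0 UMIs of these genes (45.7 CPM), and all 22 of PyMT venules in 355 such barcodes (14.9 CPM). Only 2 KPC and 5 PyMT venule barcodes held any UMI of these genes. That is too few for this split to bear on doublets in venules. In the KPC other class, 161 barcodes with under 2 UMIs of the 6 endothelial genes held 111 of the 450 chain gene UMIs (400.1 CPM). The highest, with 69 UMIs of the chain genes and Cd74, had 0 endothelial UMIs. The reverse mixture was common too, since 18 of 24 PyMT and 40 of 69 KPC immune barcodes held at least 2 endothelial UMIs.

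BECs were therefore also read with only barcodes holding at least 2 endothelial UMIs and 0 UMIs of 12 immune genes (Ptprc, Tyrobp and Laptm5, with the further immune genes apart from Fcer1g, Coro1a and Cd53), which are called cleared here. This set was chosen after the values had been seen. The chain genes then held 15.0 CPM in PyMT venules and 43.1 CPM in KPC venules, and log2 ratios over capillaries were 3.18 [2.24 to 4.13] and 1.41 [0.94 to 1.89]. Cleared KPC other barcodes held 22.3 CPM, and venules stood above them with a log2 ratio of 0.95 [0.62 to 1.27] for chain genes and 1.75 [1.38 to 2.12] for Cd74. KPC over PyMT in all cleared BECs was 2.99 [2.68 to 3.31], and in cleared venules 1.52 [0.86 to 2.25]. It was 3.29 [2.53 to 4.10] in cleared capillaries, 2.24 [1.35 to 3.23] in tip cells and 3.22 [2.76 to 3.71] in the other class. Lymphatic over all BECs was 3.33 [2.84 to 3.81] in PyMT and -1.82 [-2.61 to -1.12] in KPC. KPC over PyMT in cleared lymphatic barcodes was -2.16 [-3.03 to -1.36].

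The cleared BECs with 2 or more UMIs of the chain genes and Cd74 were then set beside cleared BECs with none, a comparison added after the data had been seen. There were 9 such venule barcodes in PyMT (335 with none) and 25 in KPC (552 with none). Over all BECs there were 28 in PyMT (9891 with none) and 95 in KPC (6687 with none). In KPC venules Pecam1, an endothelial adhesion molecule, differed by a log2 ratio of -0.02 [-0.33 to 0.28] and Cdh5, VE-cadherin, by -0.42 [-0.84 to -0.03]. The 95 KPC barcodes had 0 UMIs of Ctss, the protease abundant in immune barcodes, 0 of Coro1a and 2 of Fcer1g, and the 28 PyMT barcodes had 0 of Ctss, 1 of Coro1a and 0 of Fcer1g.

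Class II genes that did not define these cells were more often detected in them. H2-DMa was found in 6 of 25 KPC venule cells (24.0%) against 9 of 552 (1.63%), a log2 ratio of CPM of 3.99 [2.22 to 5.65]. H2-DMb1 was found in 5 of 25 (20.0%) against 4 of 552 (0.725%). Over all KPC BECs H2-DMa was found in 14.7% and 0.733%, H2-DMb1 in 13.7% and 0.359%, and Ciita in 4 of 95 (4.21%) and 8 of 6687 (0.12%). In PyMT H2-DMb1 was found in 2 of 28 and 1 of 9891 BECs, and H2-DMa and Ciita in 0 of 28.

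Several genes that respond to interferon gamma were higher in these cells, and others of the list were not called. Among all genes 6.78% were at least 2-fold higher in the KPC venule cells with class II UMIs and 8.71% in the PyMT ones. From the list of 11 interferon gamma response genes, 5 of the 10 with 30 UMIs were at least 2-fold higher in KPC venules: the transcription factor Irf1, the GTPases Gbp2, Gbp4 and Iigp1, and the T cell chemokine Cxcl9. In PyMT venules 6 of 9 were, these 5 and Ifngr2. Gbp2 was found in 14 of 25 KPC venule cells (56.0%) against 21.4%, a log2 ratio of 2.79 [2.30 to 3.25], and in 5 of 9 PyMT venule cells (55.6%) against 21.8%, a log2 ratio of 2.54 [1.86 to 3.16]. Iigp1 was found in 84.0% against 49.5% of KPC venule cells and in 9 of 9 against 40.3% in PyMT. These detection shares were not adjusted for depth, and the depth of the compared cells is not given here. Depth was read in another set, before clearing. There the 2 PyMT venule barcodes with 5 or more class II UMIs had a median of 6083 UMIs, against 3486 in the whole class. In KPC venules these medians were 3654 (15 barcodes) and 3848.5. Cxcl9 had 97 UMIs in 7 of the 25 KPC cells and 41 UMIs in 16 of the 552 (2.90%), and in PyMT it was found in 2 of 9 and 30 of 335. The receptor chain Ifngr1 and the kinase Jak1 had intervals that spanned 0 in the venules of both libraries.

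Over all BECs 7.55% of genes were at least 2-fold higher in the KPC cells with class II UMIs, and 5 of 11 interferon gamma response genes were. In PyMT 13.9% of all genes and 6 of 11 of the list were, although there the median gene was itself shifted by 0.56 on the log2 scale. Of the class I genes, H2-K1 and Tap1 were at least 2-fold higher in KPC venules and over all KPC BECs, and H2-K1 and H2-D1 in PyMT venules, with log2 ratios for H2-K1, a class I heavy chain, of 1.13 [0.94 to 1.32] and 1.16 [0.87 to 1.44]. In all PyMT BECs the 4 class I genes were called. Of the costimulation list, 3 genes had 30 UMIs over all BECs of each library. Cd274 (PD-L1) and Icam1 were called over all KPC BECs and Icam1 over all PyMT BECs. In venules Icam1 was not called. Cd274 could not be called there, since the whole venule class held 5 UMIs of it in PyMT and 9 in KPC. Of the class II pathway genes with 30 UMIs, 1 of 6 was called in PyMT venules (Ctsl) and 2 of 10 in all PyMT BECs (Lgmn and Rfx5). In KPC 0 of 7 were called in venules and 0 of 10 in all BECs. These counts are near the shares over all genes in venules and all BECs (8.71% and 13.9% in PyMT, 6.78% and 7.55% in KPC), and no test was run on them.

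**Figure D5:**
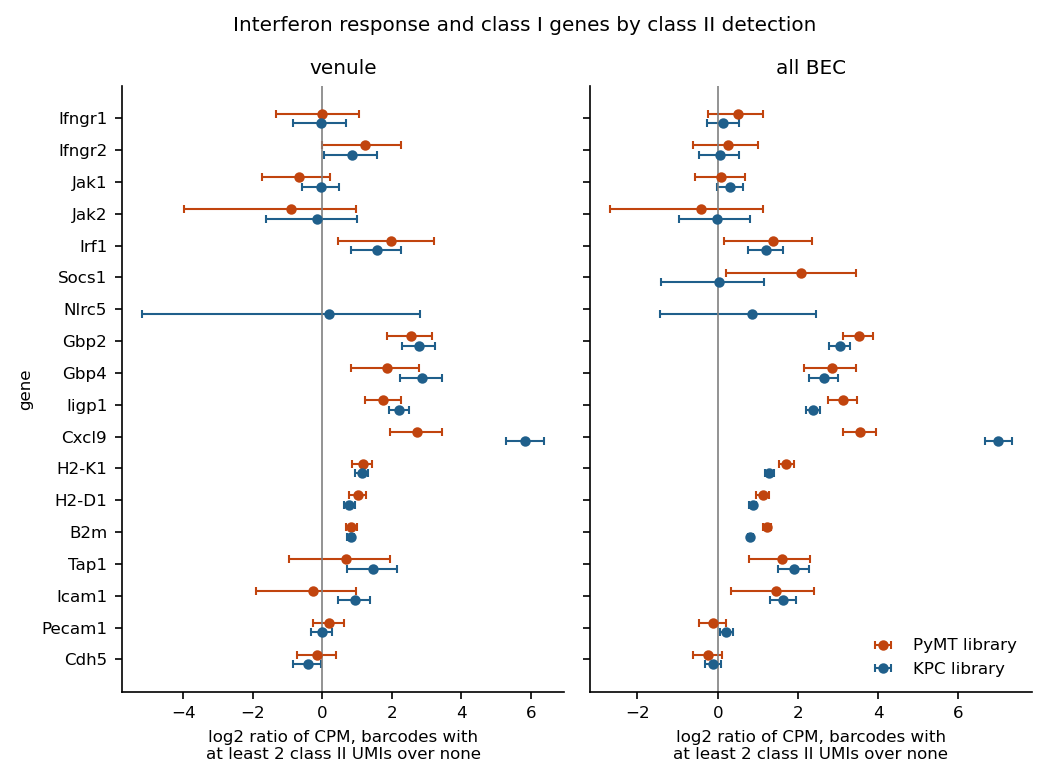
log2 ratio of CPM between cleared barcodes with at least 2 UMIs of the chain genes and Cd74 and those with none, with 95% counting intervals, for the interferon gamma response list, the class I list, Icam1 and the endothelial genes Pecam1 and Cdh5, in venules and in all BECs. Gbp2 is at 2.54 (PyMT) and 2.79 (KPC) in venules. In KPC venules Pecam1 is close to 0, while Cdh5 is lower with an interval below 0. Genes with 0 UMIs on either side are not drawn.

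The other genes of the class II pathway were also read between venules and capillaries. Of 18 genes 16 were in the feature lists (H2-Ea-ps and Ifi30 were not analysed here), 10 had 30 UMIs in venule and capillary together, and 0 of these were at least 2-fold higher in venules in either library. With 4.48% (PyMT) and 3.11% (KPC) of all genes called in this comparison, a count of 0 among 10 is near the background, and no test was run on it. Lgmn, a lysosomal protease, came closest in KPC at 0.86 [0.73 to 0.99] and stood at 0.50 [0.38 to 0.61] in PyMT. The X box factors Rfx5, Rfxank and Rfxap and the Y box factors Nfya, Nfyb and Nfyc were present in both libraries, with 118 to 2033 UMIs each in BECs, and their venule over capillary intervals spanned 0. Ctss, the protease that trims the invariant chain in leukocytes, had 37 UMIs in all PyMT BECs and 38 in all KPC BECs. H2-Oa and H2-Ob, which form the H2-DM inhibitor, had at most 14 UMIs, and March1, a ligase that removes class II from the surface, had 1 UMI in PyMT and 0 in KPC. The list's median log2 ratio was 0.07 in PyMT and -0.15 in KPC, beside 0.03 and -0.05 over all genes.

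Of the 11 interferon gamma response genes, Jak2, Nlrc5, Gbp2 and Iigp1 were at least 2-fold higher in PyMT venules than capillaries, and Jak2, Nlrc5 and Cxcl9 in KPC venules, that is 4 and 3 of 11, with list medians of 0.87 and 0.24. In this comparison 4.48% of all genes in PyMT and 3.11% in KPC were called higher. The list was split in KPC, where Socs1 stood at -1.12 [-1.66 to -0.61]. Irf1 (-0.51), Ifngr2 (-0.52) and Ifngr1 (-0.48) were also lower in KPC venules, with intervals below 0. Jak1, Gbp2 and Iigp1 were higher there by less than 2-fold, with intervals above 0. In PyMT Ifngr2 stood at -0.33 [-0.62 to -0.06]. Nlrc5, the class I counterpart of Ciita, stood at 1.29 [0.27 to 2.20] in PyMT and 1.55 [0.43 to 2.78] in KPC. Cxcl9 stood at 0.87 [0.57 to 1.16] and 4.29 [3.37 to 5.38]. None of the 4 class I genes reached 2-fold in either library, a count near that background, with medians of 0.38 and -0.01. Of 9 costimulation and checkpoint genes, Cd40, Cd274 and Icam1 had 30 UMIs, and Icam1, the adhesion ligand of leukocyte integrins, was called at 1.99 [1.75 to 2.23] in PyMT and 1.36 [1.17 to 1.56] in KPC (list medians 0.65 and -0.24). Cd274 stood at 0.65 [-1.09 to 2.04] in PyMT and was lower in KPC venules at -1.24 [-2.52 to -0.10]. The Cd40 intervals spanned 0 in both libraries. Cd80 and Cd86, the ligands of CD28, had 2 and 0 UMIs in all PyMT BECs and 4 and 2 in all KPC BECs, and Icosl, Pdcd1lg2, Cd83 and Tnfsf4 were also under 30.

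Across the 6 endothelial classes (the 5 BEC classes and lymphatic), the genes whose level followed the chain genes most closely in both libraries were Pnrc1, Birc2, Iigp1, Sntb2 and Far1. The lower of the 2 within-library Pearson r values on log2(CPM + 1) was 0.91, 0.90, 0.89, 0.87 and 0.87, the highest among 6551 genes with at least 20 CPM in a class of each library. These are descriptions over 6 points that share a library and differ in depth, and the ratios between classes were small for some: Far1 ranged from 35.8 to 48.7 CPM in PyMT, whereas Iigp1 ranged from 58.7 CPM in tip cells to 264.6 CPM in venules in PyMT and from 80.8 to 305.0 CPM in KPC.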

How the data were processed

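Sorted tumor endothelial cells of 2 libraries, 1 per tumor model, were sequenced with 10x 3' chemistry (named as v2 and as v3 in different places). The authors aligned reads to mm10 and counted UMIs with Cell Ranger (3.0 in the submitters' processing notes, 3.0.2 in the file header), and the deposited values are raw UMI counts per gene and barcode. PyMT held 12464 barcodes with 55547926 UMIs and KPC 10236 with 44441942. The 7 genes, the gene lists and the classes were chosen with earlier results of these data known. No doublet caller was run. Named genes are the 7, list genes by the 30-UMI rule, and the 5 genes of most similar pattern. Of the interferon gamma response list, 1 gene is not reported here and was left out of its counts and medians.

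Levels are CPM of a class's summed UMIs with exact Poisson intervals, ratios have exact conditional binomial intervals, and shares have Clopper-Pearson intervals, at 95%, for counting error only. Thinning used seed 1. No fold is given where both sides hold 3 UMIs or fewer. Python 3.11.15, numpy 2.4.6, scipy 1.17.1 and pandas 2.3.3 were used. Alternatives covered filters, gates, immune RNA, doublets, averaging, trimming and thinning.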

Additional observations from a re-analysis of the deposited data

Results flagged for a closer look

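The lymphatic barcodes stood on opposite sides of the BECs in the libraries, gene by gene. The log2 ratio of lymphatic over all BECs was 1.88 in PyMT and -1.37 in KPC for H2-Aa, 3.16 and -1.22 for H2-Ab1, 3.87 and -0.90 for H2-Eb1, 3.61 and -1.23 for Cd74, and 4.79 and -2.92 for H2-DMb1. For the 3 chain genes together it was 3.21 and -1.19. Between the libraries (KPC over PyMT) the chain genes stood at -0.88 in lymphatic barcodes and at 3.51 in all BECs. The PyMT value of H2-DMb1 rests on 9 lymphatic and 6 BEC UMIs, and its KPC value on 1 and 57. H2-Eb1 also changed sides between venule and lymphatic barcodes, at -1.71 in PyMT (4 and 23 UMIs) and 1.76 in KPC (31 and 11 UMIs). The difference between the models was not tested, since each has 1 library. In KPC lymphatic barcodes 65 UMIs of Lyz2, C1qa, C1qb and C1qc were counted, and 10 in PyMT ones; their part in the difference was not tested.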

How the results depend on the processing

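The log2 ratio of the chain genes between venule and capillary was 3.08 in PyMT and ranged from 1.67 to 3.26 over 12 alternatives. In KPC it was 1.19 and ranged from 0.81 to 1.87 over 13, and KPC over PyMT in all BECs was 3.51 and ranged from 2.99 to 6.50 over 13, the trim of the highest 1% set aside. None of these reversed a direction, and 28 of the 38 values moved by less than the counting interval. In PyMT thinning to 2000 UMIs gave 1.67 and leaving out the 8% of barcodes with the most UMIs 2.23. In KPC the mean of each cell's CPM gave 0.81. In KPC at least 1000 genes with under 5% mitochondrial UMIs gave 1.87, subtracting immune RNA scaled on 12 genes 1.67, the reverse order of the BEC gates 1.74 and thinning 1.80. KPC over PyMT was 3.08 with 0 UMIs of the 3 gate genes, 3.08 with 0 also of the 12 further immune genes, 6.50 after the 12-gene subtraction, 3.09 after thinning and 2.99 in the cleared barcodes. The cause of these shifts was not tested. The 6.50 rests on a small PyMT remainder, since the 12-gene carried-over level took up most of the 2.33 CPM in PyMT BECs. Leaving out the 1% of each class with the most class II UMIs gave 4.08 for PyMT venule over capillary (6 UMIs against 0) and 6.40 for KPC over PyMT (273 UMIs against 6), but this trim takes more PyMT capillary barcodes than hold a UMI, so both values follow from its construction and bear on nothing. The 12-gene subtraction gave no PyMT venule over capillary value, since the capillary level fell below 0. Subtraction scaled on 4 macrophage genes, the cleared barcodes and leaving out barcodes found in both libraries were chosen after seeing the data. For single genes 15 of 145 values of the venule over capillary ratio moved and 0 reversed. No paired analysis was possible because each model has 1 library, and no replicate could be left out. Ciita and H2-DMb1 are limited by depth in PyMT.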

Other observations

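Class II genes were also found in the KPC fibroblast class, which the sort was meant to leave out. Its 440 barcodes held 59.8 CPM of the chain genes [50.3 to 70.6, 140 UMIs] and 29.5 CPM of Cd74 [22.9 to 37.3, 69 UMIs]. A chain gene UMI was found in 39 of 440 (8.86%), and among barcodes with a Cd74 UMI in 14 of 20 (70.0%) against 25 of 420 (5.95%) without one. The level that immune RNA would carry over was 11.4 CPM on 4 macrophage genes and 13.5 CPM on 12 immune genes. In PyMT 0 of 27 fibroblast barcodes had a chain gene UMI, with an upper limit of 12.8%.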
